A study of Mus musculus with 2 samples.

Results

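Acetylcholine receptors and the enzyme that breaks acetylcholine down were examined in dorsal striatum through 8 genes chosen by name: the muscarinic receptors Chrm1, Chrm2, Chrm3 and Chrm4, the nicotinic subunits Chrna4, Chrnb2 and Chrna7, and acetylcholinesterase, Ache. All 8 were found among the 32531 gene symbols of the deposited counts. There was 1 library from mice whose cocaine intake escalated (the escalating library) and 1 from mice whose intake did not (the nonescalating library), both after intravenous self-administration with long access. Mice of both groups carried the Drd1-EGFP/Rpl10a transgene (Drd1-TRAP line CP73), which tags ribosomes in cells that express the dopamine receptor Drd1, on an FVB/N-Swiss Webster background crossed to C57BL/6 for a minimum of 9 generations. Both libraries are input, the total RNA of the dissected tissue before any purification of tagged ribosomes. The sources used here do not give age, sex or how many animals each library was made from, and no drug-free group was analysed here.

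Striatal acetylcholine comes mainly from a sparse class of large cholinergic interneurons that fire tonically and arborise widely. It acts on muscarinic receptors, which couple to G proteins, and on nicotinic receptors, which are ion channels built of several subunits. Chrm1, coupled to Gq, is carried by both kinds of projection neuron, while Chrm4, coupled to Gi/o, is enriched in the projection neurons that express Drd1. Chrm2, also coupled to Gi/o, acts as an autoreceptor on cholinergic interneurons. Acetylcholinesterase ends the signal by hydrolysing the transmitter.

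Reads assigned to genes numbered 9548358 for the escalating library and 9376097 for the nonescalating library. Counts were scaled between the libraries with TMM, a method that centres the bulk of genes, and levels below are counts per 1000000 reads of scaled library size (CPM), or RPKM where also divided by exon length in kilobases. With 1 library per group there is no replicate check and no test, so every interval is a 95% counting interval, covers counting error only, and sets library against library rather than condition against condition. A gene was called when it differed by at least 1.5-fold with an interval that excluded 1. Of 12213 genes with at least 50 reads over both libraries, 9.33% were called higher in the escalating library and 17.1% lower. Markers of other cell types differed widely. All 15 microglia markers and all 14 astrocyte markers (13 when scaled to total reads) were lower in the escalating library, with summed levels of 35.2 CPM in the escalating library against 1711 CPM in the nonescalating library for microglia, and 2479 CPM (escalating) and 16606 CPM (nonescalating) for astrocytes. Trem2 and Gpr34 were at 0 among the microglia markers of the escalating library. Broad neuronal markers summed to 9022 CPM in the escalating library against 7583 CPM in the nonescalating library. The tissue label was borne out by Drd1, with 3010 escalating-library and 2959 nonescalating-library reads, Ppp1r1b, with 18584 (escalating) and 7710 (nonescalating), and the vesicular GABA transporter Slc32a1, with 1108 (escalating) and 1025 (nonescalating). In bulk tissue, fewer cells of a type and less RNA per cell cannot be told apart.

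Of the 8 genes, Chrm2 and Chrna7 were called higher in the escalating library and Chrm3 lower, against 9.33% and 17.1% of all measured genes, and 5 were not called. The median log2 ratio of the 8, escalating over nonescalating, was -0.16, beside 0.02 over all measured genes. The 3 called genes were those with the fewest reads. The genes behind the main striatal receptors, Chrm1, Chrm4, Chrna4 and Chrnb2, differed by less than 1.5-fold. In the plot of all measured genes, the 5 uncalled genes lay between percentiles 26.0 and 46.1 of the log2 ratio, Chrm2 at 94.6, Chrna7 at 93.9 and Chrm3 at 7.27.

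**Figure D1:**
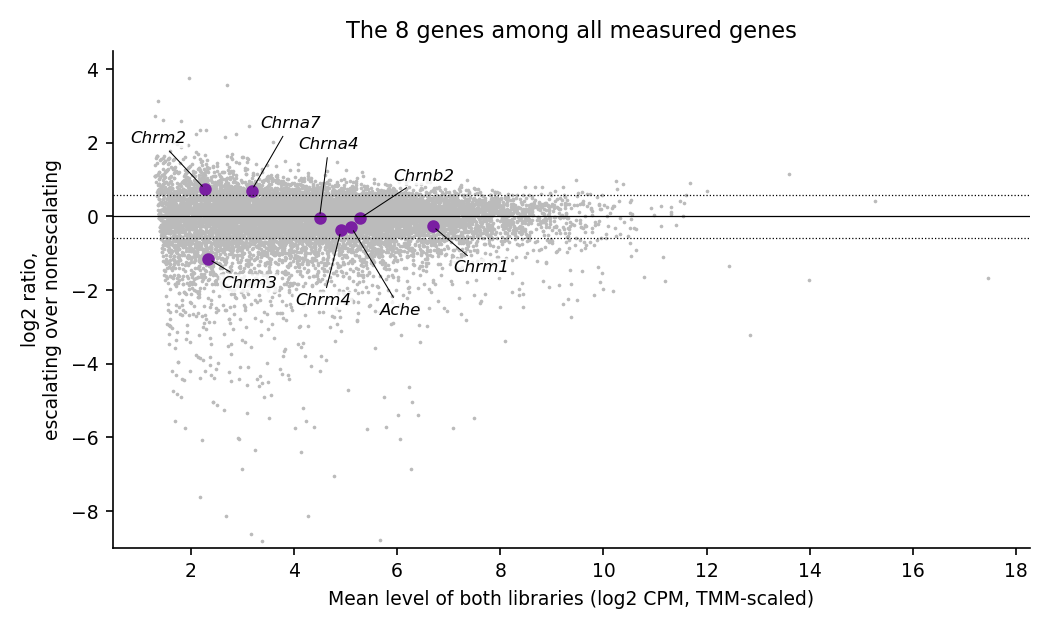
Mean level of both libraries (log2 CPM, x axis) against the log2 ratio of the escalating over the nonescalating library (y axis) for all measured genes (grey) and the 8 cholinergic genes (purple), with dotted lines at 1.5-fold. Chrm2 at 0.74 and Chrna7 at 0.70 lie above the upper line and Chrm3 at -1.15 below the lower one, at the low-count end of the plot.

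Among the muscarinic receptors, Chrm1 was the most counted. Chrm1 (chromosome 19, 8663789 to 8683587, plus strand) had 1015 reads in the escalating library against 932 in the nonescalating library, or 93.8 CPM (escalating) and 112.6 CPM (nonescalating). Its log2 ratio was -0.26 (-0.39 to -0.13), a small deficit that became 0.10 when libraries were scaled to total reads. Chrm4 (chromosome 2, 91927249 to 91928688, plus strand) had 284 escalating-library and 282 nonescalating-library reads, or 26.2 CPM in the escalating library against 34.1 CPM in the nonescalating library, with a log2 ratio of -0.38 (-0.62 to -0.13). The raw counts of both genes were close in the 2 libraries, so their ratios follow the scaling chosen.

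The less abundant muscarinic receptors differed in opposite directions. Chrm2 (chromosome 6, 36388084 to 36528414, plus strand) had 66 reads in the escalating library against 30 in the nonescalating library, or 6.10 CPM (escalating) and 3.63 CPM (nonescalating), and was 1.68-fold higher (1.08 to 2.68). Chrm3, a Gq-coupled receptor (chromosome 13, 9875486 to 10360847, minus strand), had 34 escalating-library and 58 nonescalating-library reads, or 3.14 CPM (escalating) and 7.01 CPM (nonescalating), and was 2.23-fold lower in the escalating library (1.44 to 3.51). Chrm3 was called lower under all 9 scalings, filters and pseudocounts tried, and Chrm2 higher under 8 of the 9. The 9 include the main setting itself and looser read filters. Those filters could not change either call, because both genes already passed the stricter main filter. The Chrm2 interval nearly reached 1, since it rests on 96 reads in all. Chrm5, the remaining muscarinic receptor and not among the 8, had 23 escalating-library and 27 nonescalating-library reads and was not called, with a log2 ratio of -0.61 (-1.49 to 0.24).

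Among nicotinic subunits, Chrna4 and Chrnb2, which together form the common high-affinity receptor of brain, were nearly level between libraries with TMM. Chrna4 (chromosome 2, 181018380 to 181043546, minus strand) had 242 escalating-library and 189 nonescalating-library reads, or 22.4 CPM in the escalating library against 22.8 CPM in the nonescalating library, with a log2 ratio of -0.03 (-0.31 to 0.25). Chrnb2 (chromosome 3, 89746195 to 89764632, minus strand) had 415 escalating-library and 328 nonescalating-library reads, or 38.4 CPM (escalating) and 39.6 CPM (nonescalating), with a log2 ratio of -0.05 (-0.26 to 0.17). Both intervals held 0 with TMM. They lay above 0 with total reads, at 0.05 to 0.61 for Chrna4 and 0.10 to 0.53 for Chrnb2, and below 0 with neuronal markers centred at 0, at -0.59 to -0.03 for Chrna4 and -0.54 to -0.12 for Chrnb2, so the side on which each gene fell depends on the scaling. Neither was called under any scaling tried. Exons of Adar on the opposite strand cover 16.3% of the exon length of Chrnb2, and Adar had 1473 reads in the escalating library against 791 in the nonescalating library. Because the sources used here do not state the strand setting of the counting, reads from that overlap could be lost or exchanged. Noncoding genes on the opposite strand cover 5.07% of the exon length of Chrm1, 2.35% of that of Chrm2 and 2.12% of that of Ache. Chrna7, which forms calcium-permeable receptors of a single subunit type (chromosome 7, 63098692 to 63212569, minus strand), had 122 escalating-library and 57 nonescalating-library reads, or 11.3 CPM in the escalating library against 6.89 CPM in the nonescalating library. In the escalating library it was thus 1.64-fold higher (1.19 to 2.28).

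Acetylcholinesterase was not called. Ache (chromosome 5, 137287519 to 137294466, plus strand) had 337 reads in the escalating library against 315 in the nonescalating library, or 31.1 CPM (escalating) and 38.1 CPM (nonescalating), with a log2 ratio of -0.29 (-0.52 to -0.06). With total-read scaling the ratio was 0.07. Its small deficit was close in size to those of Chrm1 and Chrm4.

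**Figure D2:**
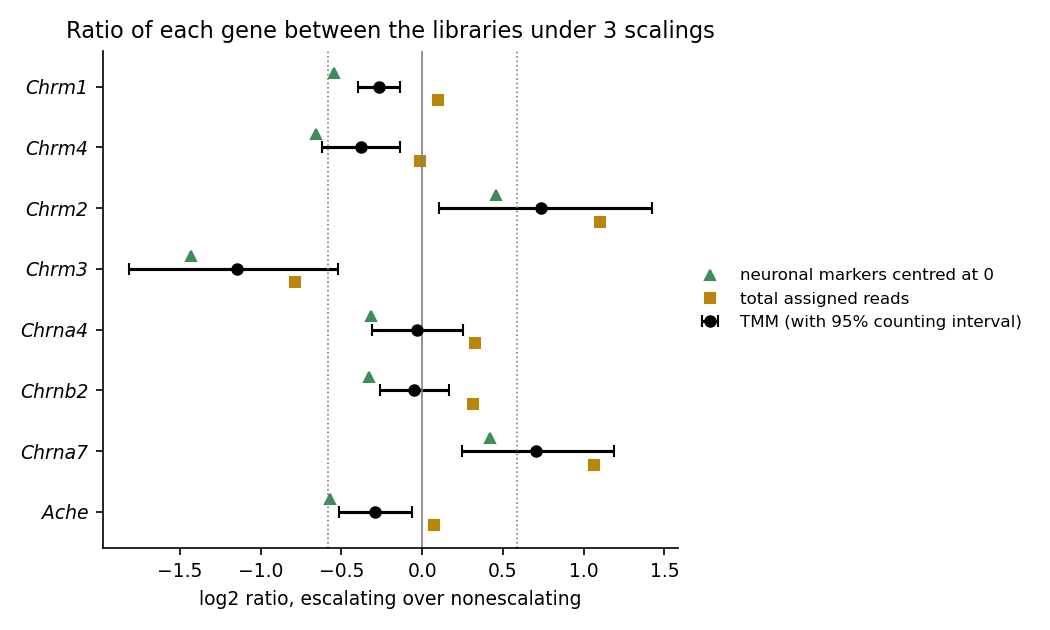
Log2 ratio of the escalating over the nonescalating library (x axis) for each of the 8 genes (y axis) under 3 scalings: TMM with its 95% counting interval (black circles), neuronal markers centred at 0 (green triangles) and total assigned reads (yellow squares), with dotted lines at 1.5-fold. Chrm3 lies below the lower line under each of the 3, from -1.43 to -0.79, whereas Chrm2 and Chrna7 fall short of the upper line, at 0.46 and 0.42, when neuronal markers are centred.

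The choice of scaling shifted all 8 ratios together. With total assigned reads, where the median over all measured genes was 0.38 and 31.5% of them were called higher and 9.41% lower, Chrm2 was 2.16-fold and Chrna7 2.10-fold higher and Chrm3 1.74-fold lower in the escalating library. With the median of 13 broad neuronal markers set to 0, a scaling relative to neurons, 2.83% of all measured genes were called higher and 28.6% lower. Under it neither Chrm2 nor Chrna7 was called, with log2 ratios of 0.46 and 0.42, Chrm4 was called lower at -0.66, and Chrm3 stood at -1.43.

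Shares of reads within a receptor class do not depend on the scaling between libraries. Chrm1 held 71.4% of the 1422 muscarinic reads in the escalating library (69.0 to 73.7, exact binomial) and 70.1% of the 1329 in the nonescalating one (67.6 to 72.6). Chrm4 held 20.0% of escalating-library (17.9 to 22.1) and 21.2% of nonescalating-library muscarinic reads (19.0 to 23.5). Both intervals overlapped between libraries. Chrm2 held 4.64% in the escalating library (3.61 to 5.87) against 2.26% in the nonescalating library (1.53 to 3.21), without overlap, and Chrm3 2.39% in the escalating library (1.66 to 3.325) against 4.36% in the nonescalating one (3.330 to 5.61), whose bounds nearly met. Thus Chrm2 reads outnumbered Chrm3 reads in the escalating library, and Chrm3 reads outnumbered Chrm2 reads in the nonescalating library.

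Of 848 nicotinic reads in the escalating library against 625 in the nonescalating library, Chrnb2 held 48.9% of the escalating (45.5 to 52.4) and 52.5% of the nonescalating reads (48.5 to 56.5). Chrna4 held 28.5% of the escalating (25.5 to 31.7) and 30.2% of the nonescalating reads (26.7 to 34.0). The ratio of Chrnb2 to Chrna4 reads was 1.71 in the escalating library (1.46 to 2.02) against 1.74 in the nonescalating library (1.45 to 2.09). Chrna7 held 14.4% in the escalating library (12.1 to 16.9) against 9.12% in the nonescalating library (6.98 to 11.7), without overlap. Per Chrna4 read there were 0.504 Chrna7 reads in the escalating library (0.402 to 0.629) against 0.302 in the nonescalating library (0.220 to 0.408). The intervals of the Chrnb2 to Chrna4 ratio thus overlapped between libraries almost fully, and those of the Chrna7 to Chrna4 ratio overlapped slightly.

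**Figure D3:**
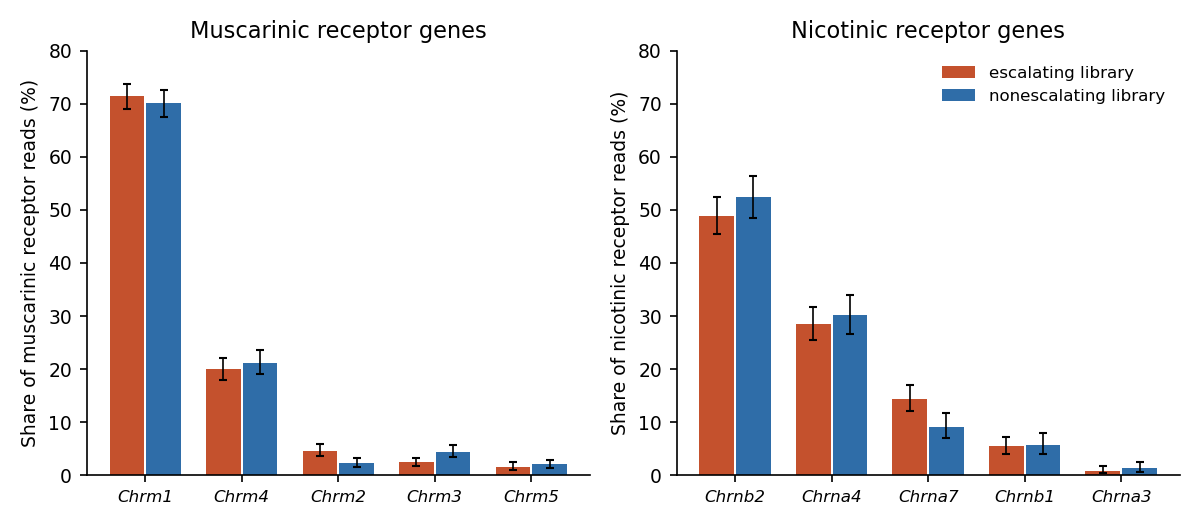
Share of all reads of a receptor class (y axis, %) taken by each gene (x axis) in the escalating (orange) and nonescalating (blue) library, for the 5 muscarinic receptor genes and the 5 nicotinic genes with the most reads, with exact 95% binomial intervals. Chrm1 takes 71.4% (escalating) and 70.1% (nonescalating) of muscarinic reads, and the intervals of Chrm2, Chrna7 and, narrowly, Chrm3 do not overlap between libraries.

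Levels were compared between genes per length, as RPKM over merged exons. Chrm4 and Chrm1 stood at the top, with 18.2 and 14.5 RPKM in the escalating library and 23.7 and 17.4 RPKM in the nonescalating library. Ache followed at 6.74 RPKM in the escalating library against 8.24 in the nonescalating library, then Chrnb2 at 4.58 (escalating) and 4.73 (nonescalating) and Chrna4 at 4.45 (escalating) and 4.55 (nonescalating), which overlapped each other in both libraries. Chrna7 came next at 2.50 RPKM in the escalating library against 1.53 in the nonescalating library. The lowest were Chrm2, at 1.01 RPKM (escalating) and 0.60 RPKM (nonescalating), and Chrm3, at 0.50 RPKM (escalating) and 1.12 RPKM (nonescalating). In the nonescalating library the intervals of Chrna7 and Chrm3, and of Chrm3 and Chrm2, overlapped, while in the escalating library Chrnb2 and Chrna4 were the only neighbours that did. The place of Chrm4 above Chrm1 depends on the annotation: its GENCODE model of 1440 bases holds only the coding exon. RefSeq extends the gene 1147 bases past that end, and with this added length Chrm4 had 10.1 RPKM (escalating) and 13.2 RPKM (nonescalating), below Chrm1 in both libraries. RefSeq also starts the gene further upstream, just after base 91922188, against 91927249 in GENCODE. Exon bases before the GENCODE start were not added, so these levels do not use the full RefSeq length.

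**Figure D4:**
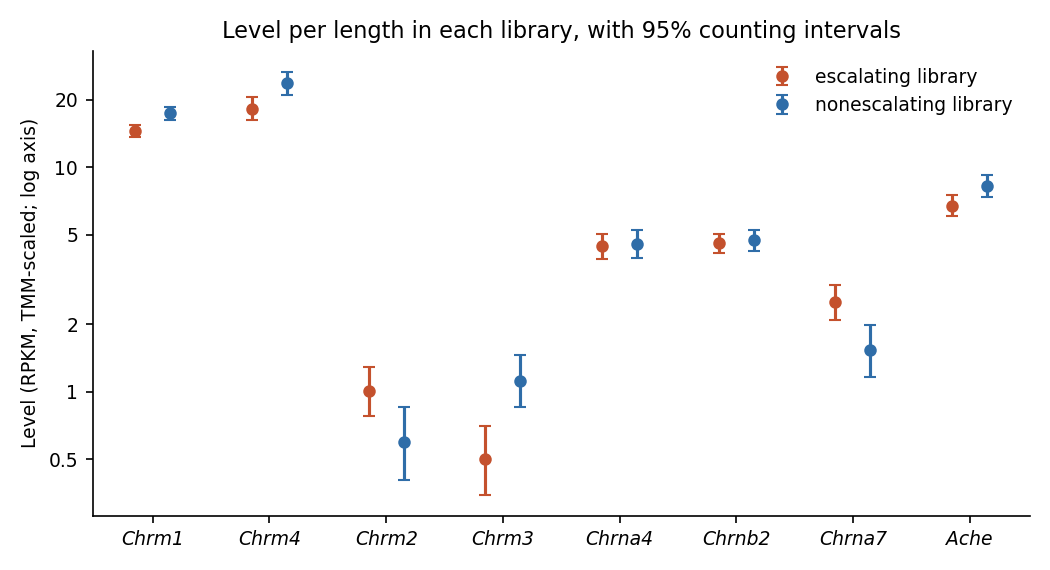
Level of each gene per length (y axis, RPKM on a log axis) in the escalating (orange) and nonescalating (blue) library, with exact 95% Poisson intervals of the counts. Chrm1 and Chrm4 are the 2 highest in both libraries, and Chrm2 and Chrm3 change places between libraries.

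The RefSeq promoter table held 7 of the 8 genes. The 250 bases before the RefSeq start are shown for the 3 called genes, as the genes whose ratios passed the threshold. Capitals mark the E-box CACGTG and the GC box GGGCGG, on either strand (CCGCCC where reversed).
Chrm2, GRCm38.p6, chr6:36387834-36388083, plus strand: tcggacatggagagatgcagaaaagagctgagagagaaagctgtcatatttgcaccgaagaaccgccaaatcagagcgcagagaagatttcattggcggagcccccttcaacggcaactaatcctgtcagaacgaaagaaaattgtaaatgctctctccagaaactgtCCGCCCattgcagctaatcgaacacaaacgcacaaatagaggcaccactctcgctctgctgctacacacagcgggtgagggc
Chrna7, GRCm38.p6, chr7:63212527-63212776, minus strand: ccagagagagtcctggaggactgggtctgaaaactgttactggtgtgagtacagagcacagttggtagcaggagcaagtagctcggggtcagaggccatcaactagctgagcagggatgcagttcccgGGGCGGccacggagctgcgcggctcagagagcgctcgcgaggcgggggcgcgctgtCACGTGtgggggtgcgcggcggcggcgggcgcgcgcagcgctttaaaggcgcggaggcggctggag
Chrm3, GRCm38.p6, chr13:10360804-10361053, minus strand: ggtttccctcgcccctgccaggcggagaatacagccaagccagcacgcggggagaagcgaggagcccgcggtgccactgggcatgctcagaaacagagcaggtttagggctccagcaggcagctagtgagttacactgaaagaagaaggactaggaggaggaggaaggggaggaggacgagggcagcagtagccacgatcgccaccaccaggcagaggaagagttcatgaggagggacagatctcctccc
The promoters of Chrm2 and Chrna7 held 1 GC box each and that of Chrm3 held 0. Among the uncalled genes, those of Chrm4, Chrna4 and Ache held 3, 3 and 4 GC boxes and that of Chrnb2 held 0. A GC box occurred in 32.7% of 32851 promoters of this length. The E-box, which 6.02% of promoters held, was found in the windows of Chrna7 and Ache. It lay 66 to 61 bases before the RefSeq start of Chrna7 and 199 to 194 before that of Ache. For some genes the RefSeq start differs from the GENCODE coordinates given above. The windows of Ache (137288004 to 137288253) and Chrna4 (181039178 to 181039427) lie inside the GENCODE span of the gene. Those of Chrna7 and Chrm3 overlap theirs in part. The cAMP response element TGACGTCA, the AP-1 site TGANTCA, the TATA box TATAAA and the half-site TTCAGCACC of the NRSE, searched on both strands, had no match in any of the 7 windows. These matches describe letters and no binding was measured.

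Other nicotinic subunits were scarce. Of the remaining 13 nicotinic genes only Chrnb1, a subunit best known from muscle, reached 50 reads, with 46 in the escalating library against 36 in the nonescalating library and a log2 ratio of -0.04 (-0.69 to 0.64). Of all 16 nicotinic genes, 7 had no read in the escalating library against 8 none in the nonescalating library, where a count of 0, taken as allowing up to 3 reads, allows up to 0.277 CPM (escalating) and 0.363 CPM (nonescalating). Chrna6, whose protein is found on dopaminergic terminals in striatum, was at 0 in both, as was Chrnb4.

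Of the genes that make and recycle acetylcholine, only 2 choline transporter-like genes were called. Chat, which synthesises acetylcholine, had 181 escalating-library and 101 nonescalating-library reads, or 16.7 CPM in the escalating library against 12.2 CPM in the nonescalating library. It was 1.37-fold higher (1.07 to 1.77), under the call threshold. Slc18a3, the vesicular transporter, which lies within the Chat gene on the same strand, had 140 escalating-library and 91 nonescalating-library reads and a log2 ratio of 0.23 (-0.16 to 0.63). Slc5a7, the high-affinity choline transporter of cholinergic terminals, had 404 escalating-library and 403 nonescalating-library reads and a log2 ratio of -0.38 (-0.59 to -0.18). The choline transporter-like genes Slc44a1, at 1.57-fold (1.39 to 1.78), and Slc44a2, at 2.15-fold (1.86 to 2.50), were lower, and Slc44a5 was not called at -0.40. In this list 0 of 6 measured genes were thus called higher and 2 lower (2 and 1 when scaled to total reads), with a median of -0.39. Over all measured genes 9.33% were called higher and 17.1% lower (31.5% and 9.41% with total reads). Per Chat read there were 1.86 Ache reads in the escalating library (1.55 to 2.24) against 3.12 in the nonescalating library (2.49 to 3.94). For Chrm2 these ratios were 0.365 (0.271 to 0.486) in the escalating library against 0.297 (0.191 to 0.450) in the nonescalating one. The intervals of the Chrm2 to Chat ratio overlapped between libraries, and those of the Ache to Chat ratio did not. The Ache to Chat difference depends on the choice of Chat, whose log2 ratio was 0.45. Slc18a3 lay on the same side of 0 as Chat, at 0.23, but Slc5a7, at -0.38, lay close to Ache, at -0.29.

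Partners of the cholinesterases were not called with TMM. Prima1, which anchors acetylcholinesterase to the membrane of neurons, had 260 escalating-library and 164 nonescalating-library reads and a log2 ratio of 0.28 (-0.01 to 0.57), and was called higher, at 1.56-fold, when scaled to total reads. Butyrylcholinesterase, Bche, had 35 escalating-library and 28 nonescalating-library reads and a ratio of -0.07 (-0.82 to 0.71). Among chaperones and Ly6-family partners of nicotinic receptors, 4 of 7 measured genes were lower and 0 higher (3 and 0 when scaled to total reads), with a median of -0.67. The shares of all measured genes were 17.1% lower and 9.33% higher (9.41% and 31.5% with total reads). Lypd6 was 2.96-fold lower in the escalating library (2.37 to 3.70), with 119 escalating-library and 269 nonescalating-library reads. Ly6e was 2.49-fold lower (2.19 to 2.84), Lypd1 2.08-fold (1.62 to 2.67) and Lynx1, a brake on nicotinic receptors, 1.60-fold (1.51 to 1.69). Exons of Gpr39 on the opposite strand cover 17.08% of the exon length of Lypd1, so the limit given for Chrnb2 holds for Lypd1 too. The chaperones Ric3 and Tmem35 (now Tmem35a) were not called, at -0.47 and -0.10, nor was Ly6h at -0.18. The astrocyte markers, with a median of -1.76, were lower beside them. Their part in these differences was not tested.

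**Figure D5:**
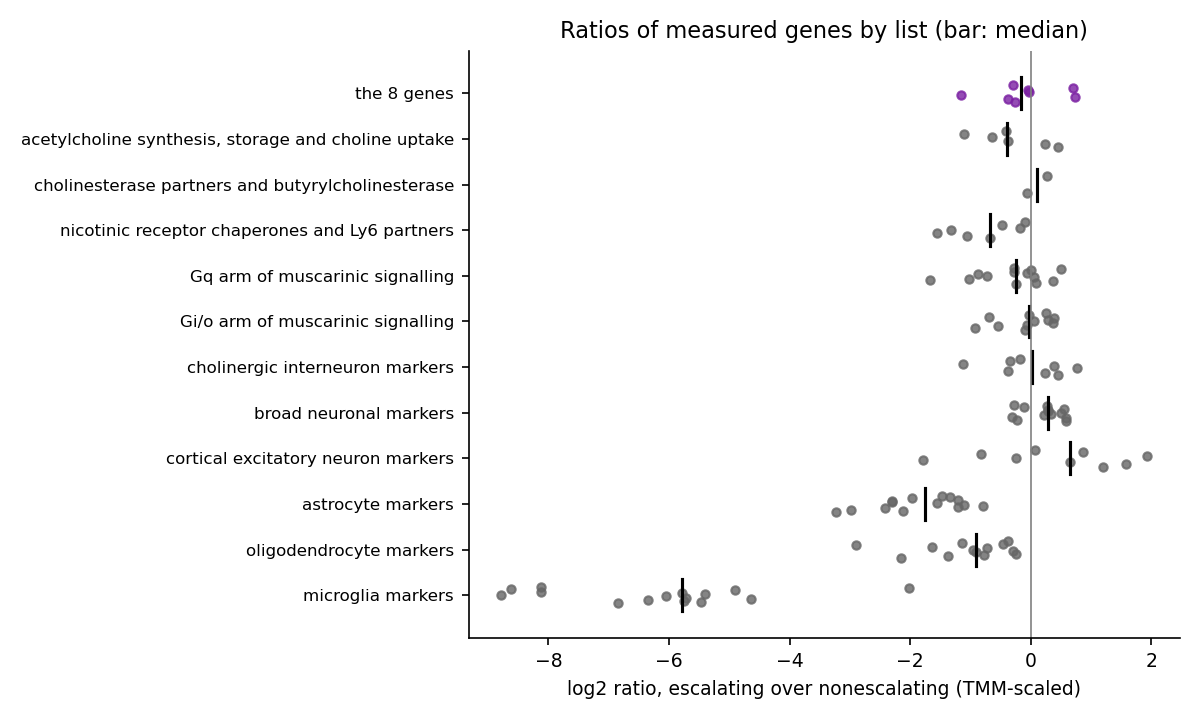
Log2 ratio of the escalating over the nonescalating library (x axis) for measured genes of each list (y axis). Points are genes and bars are list medians. The 8 cholinergic genes have a median of -0.16, nicotinic chaperones and Ly6 partners -0.67, astrocyte markers -1.76 and microglia markers -5.78.

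Downstream of the receptors, 4 of 13 measured genes of the Gq arm were lower and 0 higher, with a median of -0.25 (2 higher and 2 lower when scaled to total reads). Among those lower were the phospholipases Plcb2, at 3.23-fold (2.12 to 5.03), and Plcb3, at 2.04-fold (1.56 to 2.66), and the calcium release channel Itpr1, at 1.66-fold (1.62 to 1.70). Plcb1, the phospholipase of this arm with the most reads, had 5699 escalating-library and 3377 nonescalating-library reads and was not called at 0.37. In the Gi/o arm 2 of 11 were lower and 0 higher, with a median of -0.02 (4 higher and 0 lower when scaled to total reads). Beside both arms, 17.1% of all measured genes were lower and 9.33% higher (9.41% and 31.5% with total reads). Gnai2 was 1.89-fold lower (1.73 to 2.07) and the adenylyl cyclase Adcy5 1.63-fold lower (1.56 to 1.69), and Rgs4, which dampens muscarinic signalling in cholinergic interneurons, had a log2 ratio of -0.02 (-0.08 to 0.03).

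Markers of cholinergic interneurons lay on both sides of 0 beside Chrm2. Of 8 measured, 1 was higher and 1 lower, with a median of 0.03 (4 higher and 1 lower when scaled to total reads). Of all measured genes, 9.33% were called higher and 17.1% lower (31.5% and 9.41% with total reads). Lhx8, a transcription factor of these cells, was 1.71-fold higher (1.23 to 2.39), with 123 escalating-library and 55 nonescalating-library reads, and the glutamate transporter Slc17a8 was 2.19-fold lower (1.74 to 2.76), with 122 (escalating) and 204 (nonescalating). The list summed to 161.5 CPM in the escalating library against 184.1 CPM in the nonescalating library, and Gbx2 had 1 read in the escalating library against 0 in the nonescalating library. Markers of cortical excitatory neurons, which also carry muscarinic and nicotinic receptors, were mixed, with a median of 0.65. Of 9 measured, 5 were higher and 2 lower (5 and 1 when scaled to total reads), beside the same shares of all measured genes. Slc17a7 was 2.29-fold (1.82 to 2.92), Tbr1 3.04-fold (2.08 to 4.53) and Neurod6 3.94-fold higher (2.16 to 7.78), while the list as a whole, with Rorb at 506 (escalating) and 1342 reads (nonescalating), summed to 171.2 CPM in the escalating library against 255.4 CPM in the nonescalating library. Emx1 had 1 read in the escalating library against 0 in the nonescalating library. Whether cortical tissue or other cell types had a part in the differences of Chrna7, Chrm2 and Chrm3 was not tested.

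Among the remaining marker lists, 2 of 20 shared projection neuron markers were higher and 3 lower (median 0.15), against 8 higher and 1 lower when scaled to total reads. Of 8 Drd1 neuron markers 0 were higher and 1 lower (median 0.06), against 3 and 1 with total reads, and of 7 Drd2 neuron markers 0 were called under either scaling (median -0.24). Other interneurons had 1 higher and 1 lower of 6 (median 0.04), against 2 and 0 with total reads, and broad neuronal markers 1 and 0 of 13 (median 0.28), against 8 and 0. The calls of these neuronal lists thus depend on the scaling. So do those of all measured genes, with 9.33% higher and 17.1% lower, against 31.5% and 9.41% with total reads. Of 13 oligodendrocyte markers 9 were lower (6 with total reads), of 8 precursor markers 3 lower and 1 higher (2 and 1), of 11 endothelial markers 10 lower (6), of 3 thalamic and habenular markers 2 lower (1) and of 2 red blood cell markers 1 lower (1).

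Over the 2 libraries, the genes nearest to Chrm1 in log2 CPM were Pank3, Hnrnpa3 and Klhl9, at distances of 0.02, 0.02 and 0.03, and those nearest to Chrm4 were Sec22c, Rbbp9 and 2810474O19Rik, at 0.01, 0.02 and 0.02. With 2 libraries this likeness amounts to a similar level and a similar ratio.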

How the data were processed

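RNA of whole dorsal striatum was sequenced in 2 libraries, grouped by their titles. Reads were aligned with STAR 2.0.0e to mm10 and counted with HTSeq by the authors, per the submitters' processing notes. The sources used here do not state the version of HTSeq, its strand setting or the annotation. The deposited values are raw counts per gene symbol. Reads given to no gene stayed out of library sizes. They left 53.8% of listed reads assigned to a gene in the escalating library against 55.3% in the nonescalating library. Ambiguous between genes were 8.06% (escalating) and 18.9% (nonescalating). Reads in no annotated feature made up 28.6% (escalating) and 18.1% (nonescalating), and reads without a unique alignment 9.53% (escalating) and 7.78% (nonescalating). The symbol AK140265 alone held 9.66% of assigned reads (escalating) and 24.1% (nonescalating), and Rn45s 5.15% (escalating) and 2.97% (nonescalating).

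Counts were scaled on the whole table with TMM (edgeR 4.0.16 in R 4.3.3), with factors of 1.13 (escalating) and 0.882 (nonescalating). Log2 ratios used a pseudocount of 0.5, and folds used none. Ratio intervals were exact Clopper-Pearson intervals of the split of a gene's reads, and level intervals were exact Poisson intervals. A count of 0 was taken to allow up to 3 counts, a one-sided limit that lies below the upper bound of the two-sided Poisson interval. edgeR and DESeq2 tests were not run because no group has a second library. Exon lengths and coordinates came from GENCODE M21, on the same build, which matched all 8 genes and 71.2% of symbols. Promoters came from RefSeq, build GRCm38.p6. Python 3.11.15 did the rest, with scipy 1.17.1, numpy 2.4.6, matplotlib 3.10.9 and pandas 2.3.3.

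On simulated data for this comparison, with counting noise only and 12077 genes, 93.9% of 2-fold and 100% of 4-fold differences were recovered. Of the intervals, 95.6% held the simulated ratio, and 0.825% of genes set equal were called. The simulation took the scaling as known and held no spread between animals. It therefore checks the calculation alone and cannot give the error rate of calls in the real libraries.

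The members and gene lists were chosen with earlier results of these data known. The text names the 8 genes, measured genes of the cholinergic lists, up to 4 genes of each other list with the largest ratio in size, and the 3 genes nearest to Chrm1 and to Chrm4. Some genes were named outside this rule after their values were seen: marker genes that check the tissue, markers at 0, scarce nicotinic genes, Chrm5, Adar, Gpr39, Plcb1, Rgs4 and AK140265. Alternatives were other scalings, filters, a pseudocount, a threshold of 2-fold and other lengths.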

Additional observations from a re-analysis of the deposited data

How the results depend on the processing

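Chrm3 was called lower under every one of the 9 settings tried, the main TMM setting included (log2 ratio -1.43 to -0.79). Chrm2 (0.46 to 1.10) and Chrna7 (0.42 to 1.06) were called higher under 8, the exception being neuronal markers centred at 0. With total assigned reads the log2 ratios were 0.10 for Chrm1, -0.016 for Chrm4, 0.071 for Ache, 0.33 for Chrna4 and 0.31 for Chrnb2, the median of the 8 was 0.20, and 3850 genes were called higher and 1149 lower, against 1140 and 2091 with TMM, so 77.0% of calls were higher, against 35.3%. Without AK140265 and Rn45s in the total, Chrm1 was at -0.13, the median of the 8 at -0.021, and 1910 genes were higher. With neuronal markers centred, the ratios were -0.55 for Chrm1, -0.66 for Chrm4, -0.57 for Ache, -0.31 for Chrna4 and -0.33 for Chrnb2, the median was -0.44, 0 of the 8 were called higher and 2 lower, and 346 of all genes were higher and 3495 lower. At 2-fold, 0 of the 8 were higher and 1, Chrm3, was lower, with 246 and 1091 of all genes. These shifts come from the scaling or threshold itself. DESeq2 size factors, the upper quartile and a pseudocount of 5 changed no call of the 8. The looser filters of 10 and 1 counts are also among the 9 settings. They could not change a call of the 8, because all 8 genes already passed the stricter main filter. Among 21 other lists, 4 medians turned positive with total reads and 5 turned negative with neuronal markers centred. Another 2 settings, the upper quartile and the total without AK140265 and Rn45s, each turned 2 medians positive. With filters of 10 and 1 counts, 1 and 2 medians turned negative. The length of Chrm4, chosen after seeing the data, decided whether it stood above Chrm1. The least counted of the 8, Chrm3 and Chrm2, had 92 and 96 reads, so depth limits them most. Leaving out a library leaves no comparison. No paired analysis was possible because each group has 1 library.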
